A study of Mus musculus with 6 samples.

Results

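The proteasome genes of the mouse brain were read on 6 Affymetrix mouse exon arrays, 3 from conditional Atg7 knockout (cKO) mice and 3 from control mice. The members were all genes whose symbol in the array annotation starts with Psm, has a letter from a to g and then a number, and they were read from transcript clusters, the groups of probes for 1 transcribed region, that carry that symbol alone. The annotation holds 47 such symbols, 43 of which had a cluster of their own and were analysed among 19700 genes. They comprised 6 alpha subunits, 6 constitutive beta subunits, 3 immunoproteasome subunits, the thymus beta subunit, 6 ATPase subunits, 13 non-ATPase genes, 3 activators, 1 inhibitor and 4 assembly chaperones. Where a gene had several such clusters, as 5 of the 43 did, the cluster brightest on average was used. Psma4, Psmd1, Psme2 and Psme2b were measured only by clusters shared with other genes and are given apart. No cluster was listed for Psma5 or Psmb5, which were not analysed here.

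The cKO mice carried Nestin-Cre and 2 floxed Atg7 alleles (Nestin-Cre;Atg7f/f), and the control mice carried the same Cre with wild-type Atg7 (Nestin-Cre;Atg7+/+). All were C57BL/6 mice at P16, and both groups therefore share the Cre transgene. Nestin-Cre acts in neural precursors, from which neurons, astrocytes and oligodendrocytes descend and microglia do not. Cre driver and tissue are given differently in the 2 sources, as Nestin-Cre and cerebral cortex in the methods and as NexCre, which acts in excitatory neurons, and brain in the labels. The sources do not say that the arrays come from separate animals, so p-values measure only the spread between these 6 samples, part of which may be technical.

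ATG7 is the E1-like enzyme that autophagy needs to conjugate its ubiquitin-like proteins, and autophagy is the route by which cells send bulky cytoplasmic cargo to the lysosome. The proteasome is the other main route. Its core particle is a barrel of stacked rings, with alpha subunits that gate the entrance and beta subunits that hold the proteolytic sites inside, and a regulatory particle with an ATPase ring and non-ATPase subunits recognises, unfolds and feeds in ubiquitinated proteins. Interferon replaces the 3 catalytic beta subunits with the immunoproteasome subunits, and cells short of proteasome activity raise all subunits together through the transcription factor NRF1, the product of Nfe2l1, which binds antioxidant response elements. The proteasome genes were set side by side in cKO and control brains to see whether they differ where Atg7 is targeted.

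Since NRF1 binds antioxidant response elements, the promoters of the members, taken as 250 bases before to 50 after each RefSeq start (build GRCm38.p6), were searched on both strands for the core of that element, TGACNNNGC. A promoter was listed for 35 of the 43 members, with none for Psma8, Psmb1, Psmb2, Psmb7, Psmc3, Psmd3, Psmd7 and Psmg2. The core was found in 5 of the 35 (14.3%), against 14% of 27025 genes with a promoter. The windows around these 5 matches are printed 5′ to 3′ on the strand of the gene, because they are the members whose differences can be set against the rest, with the match in capitals as read on that strand. In Psmb6 and Psmd9 it lies on the strand of the gene and in Psmc6, Psmd12 and Psme4 on the opposite strand.
Psmb6, chr11:70525333-70525371, + strand: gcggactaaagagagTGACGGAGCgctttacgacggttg
Psmc6, chr14:45329582-45329620, + strand: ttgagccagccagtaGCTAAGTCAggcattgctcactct
Psmd12, chr11:107479278-107479304, + strand: tctGCTGTGTCAcatttgcccccctca
Psmd9, chr5:123228144-123228182, + strand: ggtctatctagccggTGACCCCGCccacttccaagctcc
Psme4, chr11:30771753-30771791, + strand: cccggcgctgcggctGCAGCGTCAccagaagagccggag
The differences of these 5 genes between cKO and control brains ranged from -0.096 to 0.06 on the log2 scale, with a median of 0.0029. Among the 30 members with a promoter and no match the median was -0.026. A match of these letters is a description of the sequence, not a site of binding.

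The other motif searches covered CCAAT, the box of NF-Y, in 14 of 35 members (40.0%) against 41.1% of all genes, and the interferon-stimulated response element core GAAANNGAA in 7 of 35 against 9.76%. The 7 promoters with GAAANNGAA were those of Psmb3, Psmb4, Psmc2, Psmd4, Psmd9, Psme1 and Psmg4, and none was that of an immunoproteasome subunit. An exact letter search of so short a stretch cannot show that a gene lacks such a site. Psme1 is shown because it is interferon-induced in mice, with the match, on the opposite strand, in capitals.
Psme1, chr14:55578489-55578527, + strand: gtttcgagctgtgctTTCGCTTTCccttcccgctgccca
Psma6 was the only member with an unadjusted p under 0.05, and RefSeq lists 2 starts for it. Both promoters are shown with CCAAT in capitals. The first holds 2 matches, 1 of them on the opposite strand, and the second holds 0.
Psma6, chr12:55383972-55384271, + strand: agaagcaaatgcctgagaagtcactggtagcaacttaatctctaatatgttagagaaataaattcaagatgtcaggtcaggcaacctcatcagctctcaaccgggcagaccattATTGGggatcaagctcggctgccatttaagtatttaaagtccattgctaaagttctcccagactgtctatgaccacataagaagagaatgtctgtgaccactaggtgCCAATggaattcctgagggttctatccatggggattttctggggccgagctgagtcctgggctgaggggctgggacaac
Psma6, chr12:55398575-55398874, + strand: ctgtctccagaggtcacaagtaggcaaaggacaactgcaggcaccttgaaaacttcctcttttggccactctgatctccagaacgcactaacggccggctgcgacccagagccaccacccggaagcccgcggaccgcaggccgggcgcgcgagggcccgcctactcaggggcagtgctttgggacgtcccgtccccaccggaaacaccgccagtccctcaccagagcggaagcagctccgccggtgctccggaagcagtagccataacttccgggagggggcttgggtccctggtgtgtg

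On each array the values are deposited log2 signals, and differences are cKO minus control, so that a positive difference means a higher signal in cKO. Atg7 itself, the targeted gene, was measured at 6.12, 6.03 and 5.90 in the cKO arrays, against 6.58, 6.54 and 6.39 in the control arrays, a difference of -0.49 (standard error 0.092, unadjusted p 0.00125 and adjusted p 1 in limma), and the groups did not overlap. For Atg7 alone, clusters listed with other genes were also admitted, so its values may come from a shared cluster. Pairs of arrays correlated at 0.98 to 0.99 over all genes tested. On the first principal component (36% of the variance), both arrays numbered 1 lay apart from the rest. Replicate 1 of the cKO lay at -26.4 and control replicate 1 at -13.9, against 2.51 to 16 on the others. Replicate 1 of the cKO also had Xist, the X-inactivation RNA, at 9.51, against 3.48 to 4.15 on the other 5 arrays. The Y-linked gene Eif2s3y was at 2.90 on it, against 5.50 to 5.84 on the others, and Kdm5d at 3.96, against 5.93 to 6.07. On these genes this array had a female pattern and the other 5 a male one. The cKO group thus holds more than 1 animal and differs in sex within itself, which cannot be told apart from other traits of this array. Several differences rest on this array, and their values without it are given beside them or with the ranges on leaving out an array. In RNA from whole tissue, fewer cells of a type and less RNA per cell cannot be told apart. Of 5 measured neuronal markers, 3 were higher and 2 lower in the cKO mean (median 0.022, with none at an unadjusted p under 0.05 in limma). Among them, Snap25 and Syt1 averaged 10.7 and 10.8 in cKO, against 10.6 and 10.9 in control. Tubb3 had the largest difference of the 5, at -0.19 (standard error 0.33). Oligodendrocyte markers were lower in the cKO mean for 4 of 4 measured genes (median -0.30, with none of the 4 at an unadjusted p under 0.05), and astrocyte markers were higher for 5 of 5 (median 0.10, also with none). Of 3 measured excitatory neuron markers, 1 was higher and 2 were lower, with Neurod6 at -0.44 (standard error 0.15, unadjusted p 0.0243 in limma), Slc17a7 at -0.21 and Tbr1 at 0.0048. The 1 measured blood marker, Alas2, differed by 0.45 (standard error 0.17, unadjusted p 0.0359 in limma). Their part in the results was not tested.

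The proteasome genes as a group differed little between cKO and control brains. Of the 43 members, 19 had a higher and 24 a lower mean in cKO, the median difference was -0.023, and the differences ranged from -0.21 for Psmb11 to 0.39 for Psma6. Across all 19700 genes the median was -0.0059 and 52.5% had a lower mean in cKO, beside 55.8% of the members. Without cKO replicate 3 the median of the members was 0.024. No member passed an adjusted p of 0.05 in limma, where 0% of all genes did. At an unadjusted p under 0.05 there was 1 member (2.33%), Psma6, against 3.96% of all genes, and the cKO and control arrays did not overlap for 4 members (9.3%), against 8.4% of all genes. Both shares stand near those of all genes.

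The intervals give the size of difference that these arrays leave room for. The 95% interval of the difference from limma lay within 0.5 on the log2 scale in either direction for 37 of 43 members (86.0%), against 80.9% of all genes. The exceptions were Psma6, Psmb2, Psmb4, Psmb11, Psmc1 and Psme4. Of the 43 intervals, 42 held 0. The median standard error was 0.099 for the members and 0.10 for all genes, and the median within-group SD was 0.12 for the members and 0.13 for all genes.

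**Figure D1:**
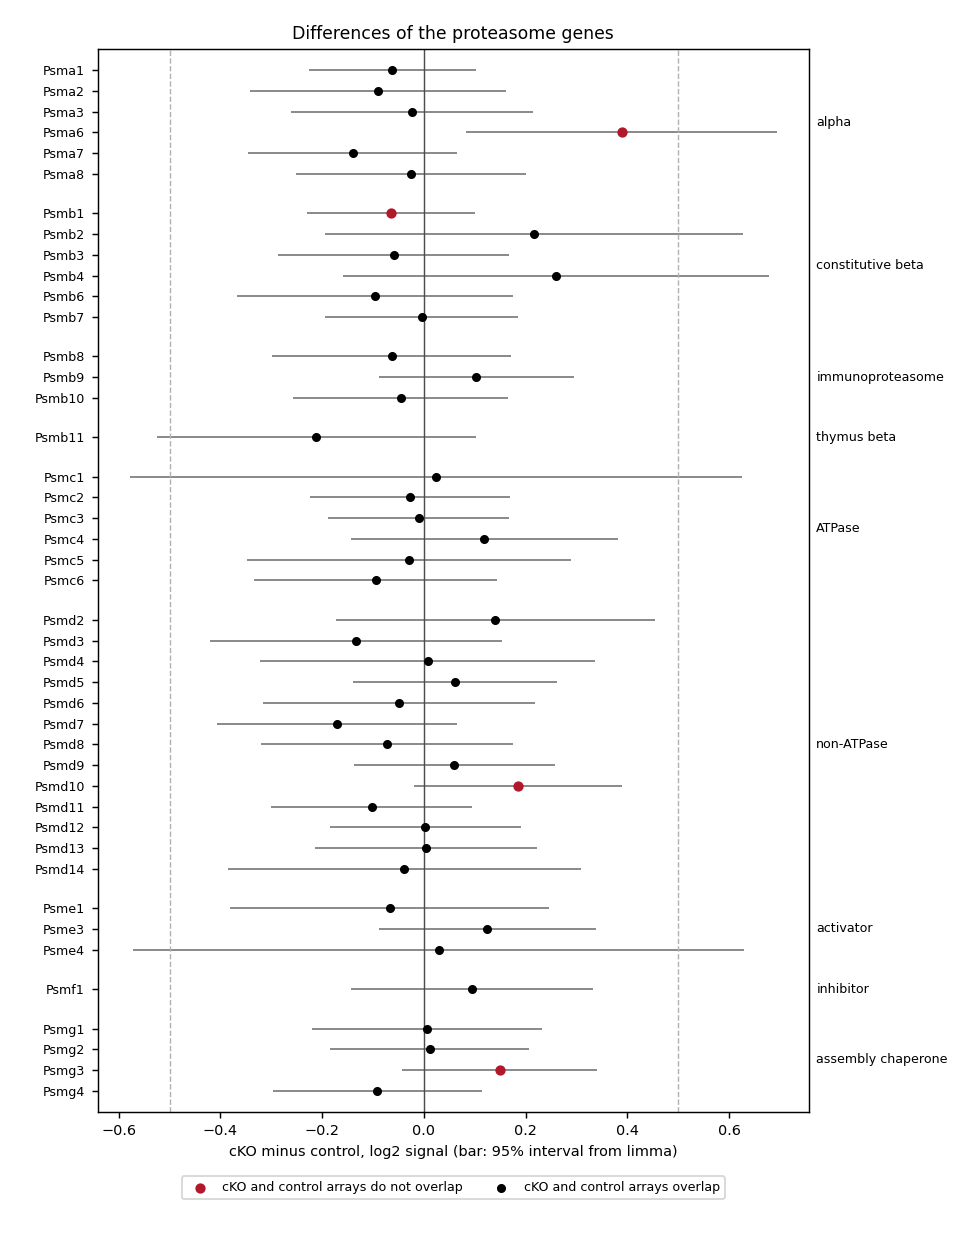
Difference of each proteasome gene, cKO minus control on the log2 scale (x axis), by class (y axis), with bars for the 95% interval from limma and dashed lines at 0.5 in either direction. The interval of Psma6 (0.083 to 0.69) is the only one that leaves out 0, and red points mark the 4 genes whose cKO and control arrays do not overlap.

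The alpha subunits, which form the outer rings and the gate of the core particle, had a median difference of -0.044, with 1 of 6 higher and 5 lower in the cKO mean. Psma6 was measured at 7.28, 7.05 and 6.88 in the cKO arrays, against 6.51, 6.72 and 6.81 in the control arrays. All 3 cKO arrays lay above the 3 control arrays, by 0.066 between the nearest pair. Its difference was 0.39 (standard error 0.13, 95% interval 0.083 to 0.69), a signal 1.31 times that of the control, with an unadjusted p of 0.0197 and an adjusted p of 1 in limma over all 19700 genes. Without cKO replicate 1, the highest cKO array, the difference was 0.28 (unadjusted p 0.0511 in limma), without control replicate 1, the lowest control array, it was 0.31 (unadjusted p 0.0664 in limma), and without both it was 0.20. Psma7, another ring subunit, was measured at 5.97, 5.80 and 5.75 in the cKO arrays, against 6.03, 5.91 and 6.0 in the control arrays. Its cKO arrays were the low ones but for replicate 1, which lay among the controls, and the difference was -0.14 (standard error 0.087). Psma1 differed by -0.062, Psma2 by -0.090, Psma3 by -0.023 and Psma8, an alpha subunit known from the testis and among the dimmest 25% of all genes here, by -0.026. A dimmer cluster of Psma3 differed by -0.65 (standard error 0.28, unadjusted p 0.0535 in limma) and overlapped between groups. Over the brightest clusters, the estimates of this class thus spanned from -0.14 to 0.39, and only the interval of Psma6 left out 0.

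Among the constitutive beta subunits, 2 of 6 had a higher and 4 a lower mean in cKO, with a median difference of -0.032. Psmb6, which carries the caspase-like site, was measured at 5.86, 5.60 and 5.44 in the cKO arrays, against 5.75, 5.75 and 5.68 in the control arrays. The cKO arrays lay on both sides of the controls, and the difference of -0.096 (standard error 0.11) was -0.0005 without cKO replicate 3 and -0.21 without cKO replicate 1. Psmb7, which carries the trypsin-like site, differed by -0.0037 (standard error 0.080). Of the structural subunits, Psmb1 was measured at 5.91, 5.89 and 5.83 in the cKO arrays, against 5.98, 5.92 and 5.94 in the control arrays. Its 3 cKO arrays lay below the 3 control arrays, by 0.0039 between the nearest pair and as in no other member, and the difference was -0.065 (standard error 0.069, 95% interval -0.23 to 0.10, unadjusted p 0.383 in limma).

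Psmb4 and Psmb2, structural subunits of the same ring, had the largest differences of their class and the widest spread. Psmb4 was measured at 7.21, 6.76 and 6.53 in the cKO arrays, against 6.42, 6.69 and 6.60 in the control arrays, a difference of 0.26 (standard error 0.18). Psmb2 was measured at 7.66, 7.19 and 7.05 in the cKO arrays, against 7.29, 7.0 and 6.96 in the control arrays, a difference of 0.22 (standard error 0.17). In both genes cKO replicate 1 was the highest of the 6 arrays, and without it the differences were 0.071 for Psmb4 and 0.038 for Psmb2. Psmb3 differed by -0.059 (standard error 0.096).

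The immunoproteasome subunits are induced by interferon-gamma and are abundant in immune cells, microglia among them. Psmb8 was measured at 4.40, 4.11 and 4.22 in the cKO arrays, against 4.38, 4.22 and 4.31 in the control arrays, a difference of -0.063 (95% interval -0.30 to 0.17). Psmb9 was measured at 4.8, 4.79 and 4.77 in the cKO arrays, against 4.57, 4.77 and 4.72 in the control arrays, a difference of 0.10 (95% interval -0.089 to 0.30). Psmb10 was measured at 7.11, 7.21 and 7.19 in the cKO arrays, against 7.28, 7.07 and 7.30 in the control arrays, a difference of -0.045 (95% interval -0.26 to 0.17). The groups overlapped for each of the 3 genes, and the unadjusted p-values from limma were 0.544, 0.243 and 0.629. Their intervals reached no further than 0.30 in either direction. Psmb8 is among the dimmest 25% of all genes by mean signal, and without such dim genes the median of the class, -0.045, became 0.029.

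Markers of microglia were split between the directions. Of 8 microglial genes, 4 had a higher and 4 a lower mean in cKO, with a median difference of -0.0043, and none had an unadjusted p under 0.05. Of 5 measured genes of T and B cells, 5 had a lower mean in cKO (median -0.12), also with none at an unadjusted p under 0.05. Psmb11, the beta subunit of thymic cortical epithelium, was measured at 4.61, 4.14 and 4.35 in the cKO arrays, against 4.67, 4.45 and 4.62 in the control arrays. The difference of -0.21 (standard error 0.13) was the lowest of all members, but the groups overlapped, and this gene too was among the dimmest 25%.

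**Figure D2:**
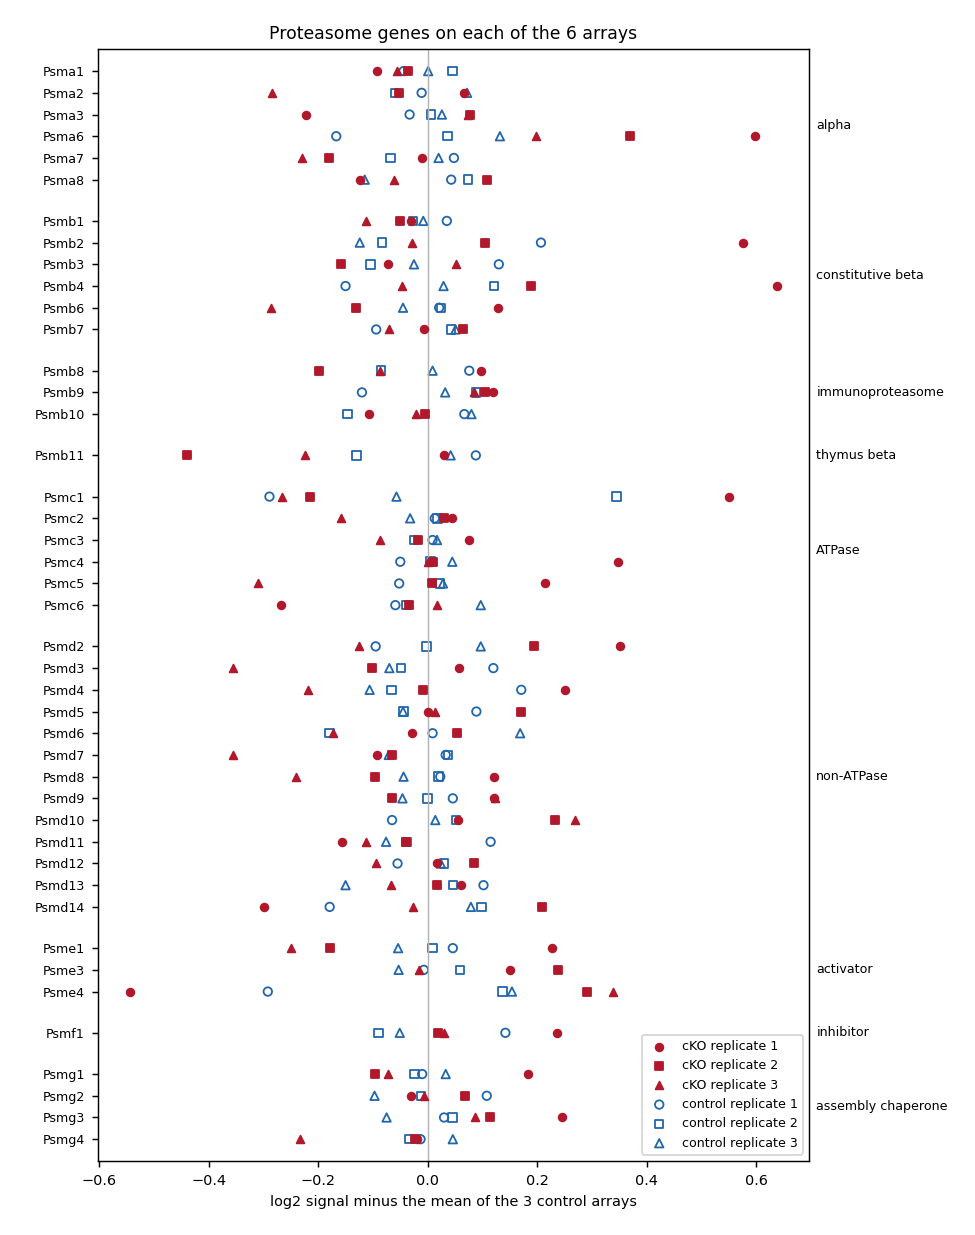
Log2 signal of each of the 43 proteasome genes on each array minus the mean of the 3 control arrays (x axis), by gene and class (y axis), with filled red symbols for cKO, open blue symbols for control and 1 shape per replicate number. Most genes have mixed red and blue symbols, and cKO replicate 1 is the highest array in Psma6, Psmb2, Psmb4 and Psmc1 and the lowest in Psme4.

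The ATPase subunits, the ring of the regulatory particle that unfolds substrates, had a median difference of -0.019, with 2 of 6 higher and 4 lower in the cKO mean. Psmc4 was measured at 7.21, 6.87 and 6.86 in the cKO arrays, against 6.81, 6.87 and 6.91 in the control arrays. Replicate 1 alone stood above the controls, and the difference of 0.12 (standard error 0.11) was 0.0039 without it. Psmc6 was measured at 5.95, 6.19 and 6.24 in the cKO arrays, against 6.16, 6.18 and 6.32 in the control arrays, with replicate 1 as the low array this time and a difference of -0.095 (standard error 0.10) that was -0.0085 without it. Psmc1 had one of the widest spreads, at 6.75, 5.98 and 5.93 in the cKO arrays, against 5.91, 6.54 and 6.14 in the control arrays. The difference, 0.024, came with a standard error of 0.25, and 2 dimmer clusters of the gene differed by 0.090 and -0.13. Psmc2, Psmc3 and Psmc5 differed by -0.028, -0.010 and -0.029.

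The non-ATPase genes comprise the scaffold, the lid with its deubiquitinase, and chaperones of the regulatory particle that share the Psmd name. Of the 13, 7 had a higher and 6 a lower mean in cKO, the median difference was 0.0029, and all 13 intervals lay within 0.5 in either direction. Psmd10, known as gankyrin, is a chaperone that holds ATPase subunits until the ring is built. It was measured at 5.89, 6.07 and 6.11 in the cKO arrays, against 5.77, 5.89 and 5.85 in the control arrays. The cKO arrays lay above the control arrays, by only 0.0039 between the nearest pair, and the difference was 0.19 (standard error 0.086, 95% interval -0.019 to 0.39, unadjusted p 0.0693 in limma). For Psmd10, cKO replicate 1 was the lowest cKO array, and the difference without it was 0.25.

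Psmd7, the lid partner of the deubiquitinase, was measured at 6.96, 6.98 and 6.70 in the cKO arrays, against 7.08, 7.09 and 6.98 in the control arrays. The low array was cKO replicate 3, and the difference of -0.17 (standard error 0.10) was -0.079 without it. Psmd14, the deubiquitinase itself, differed by -0.039 (standard error 0.15), so that the 2 partners had estimates of the same sign but of unequal size, with intervals that both held 0. The ubiquitin receptor Psmd4 differed by 0.0073 (standard error 0.14) and the scaffold subunit Psmd2 by 0.14 (standard error 0.13), which was 0.035 without cKO replicate 1 and 0.27 without cKO replicate 3. Of the other lid subunits, Psmd3 differed by -0.13, a value that was -0.022 without cKO replicate 3 and -0.23 without cKO replicate 1. The remaining lid subunits differed by less, Psmd6 by -0.049, Psmd8 by -0.072, Psmd11 by -0.10, Psmd12 by 0.0029 and Psmd13 by 0.0046. Dimmer clusters of Psmd11 differed by -0.011, 0.087 and 0.43 and that of Psmd12 by 0.35. The other chaperones of the regulatory particle, Psmd5 and Psmd9, differed by 0.062 and 0.060, and all 3 chaperones under the Psmd name were higher in the cKO mean, none past an unadjusted p of 0.05.

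The activators cap the core particle in place of the regulatory particle. Psme1, the interferon-induced alpha subunit of the PA28 ring, was measured at 6.82, 6.42 and 6.35 in the cKO arrays, against 6.64, 6.60 and 6.54 in the control arrays. Replicate 1 was the highest and the other cKO arrays were the lowest, and the difference was -0.067 (standard error 0.13). Psme3, the nuclear PA28 subunit, was measured at 7.70, 7.79 and 7.53 in the cKO arrays, against 7.54, 7.61 and 7.49 in the control arrays, a difference of 0.12 (standard error 0.090). Psme4, the PA200 activator, had the values 6.04, 6.87 and 6.92 in the cKO arrays, against 6.29, 6.72 and 6.74 in the control arrays. In both groups replicate 1 was the low array, and the difference was 0.029 (standard error 0.25). Psmf1, which inhibits the core particle in vitro, was measured at 6.95, 6.74 and 6.75 in the cKO arrays, against 6.86, 6.63 and 6.67 in the control arrays, with replicate 1 again apart in both groups, here as the high array. Its difference was 0.095 (standard error 0.10), or 0.024 without cKO replicate 1, while its 3 dimmer clusters differed by -0.45, -0.091 and 0.38.

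The assembly chaperones work as pairs, Psmg1 with Psmg2 and Psmg3 with Psmg4, that guide alpha subunits into a ring. Psmg3 was measured at 5.30, 5.17 and 5.14 in the cKO arrays, against 5.09, 5.10 and 4.98 in the control arrays. All cKO arrays lay above the control arrays, with a difference of 0.15 (standard error 0.080, 95% interval -0.042 to 0.34, unadjusted p 0.108 in limma). Its partner Psmg4 had the opposite sign, at 5.43, 5.42 and 5.21 in the cKO arrays, against 5.43, 5.41 and 5.49 in the control arrays, a difference of -0.092 (standard error 0.087) to which cKO replicate 3 gave most, since it was -0.021 without it. Psmg1 differed by 0.0058 and Psmg2 by 0.011.

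Clusters shared with other genes gave uncertain readings for the 4 remaining symbols. Of the 4 clusters that carry the name Psme2b, the groups did not overlap in 2, beside 8.4% of all genes. The brighter cluster listed for both Psme2, the partner of Psme1 in the PA28 ring, and the similarly named Psme2b was measured at 6.44, 6.36 and 6.54 in the cKO arrays, against 6.61, 6.71 and 6.62 in the control arrays. These cKO arrays lay below the control arrays, with a difference of -0.20 (standard error 0.081, unadjusted p 0.0452 in limma). A cluster listed for Psme2b and 3 other genes differed by 0.28 (standard error 0.092, unadjusted p 0.0196), with the cKO arrays above the control arrays. The other 2, a dimmer cluster of Psme2 and Psme2b and another shared with 3 genes, overlapped between groups and differed by -0.38 (standard error 0.48) and 0.15 (standard error 0.22). These clusters disagreed in sign, and none is assigned to 1 gene. The clusters of Psma4 differed by -0.041 and 0.099 and that of Psmd1 by 0.026, all with overlapping groups.

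The classes were then compared array by array, with each gene set against its control mean. The median over all 43 members was 0.057, 0.0083 and -0.070 on the 3 cKO arrays, against 0.014, 0.0053 and 0.0091 on the control arrays, so the spread between cKO arrays was larger than the distance between the groups. The cKO arrays ranked alike over all genes, at 0.053, -0.018 and -0.039, against 0.022, -0.012 and -0.0091 on the control arrays. Among the alpha, beta, immunoproteasome, ATPase and non-ATPase classes, the ATPase subunits spread most widely, with medians of 0.14, -0.0051 and -0.12 on the cKO arrays, against -0.051, 0.012 and 0.022 on the control arrays. The medians of the immunoproteasome subunits were 0.097, -0.0057 and -0.022 on the cKO arrays, against 0.067, -0.085 and 0.032 on the control arrays, and those of the microglial markers were 0.12, -0.020 and -0.071, against 0.078, -0.11 and 0.015.

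**Figure D3:**
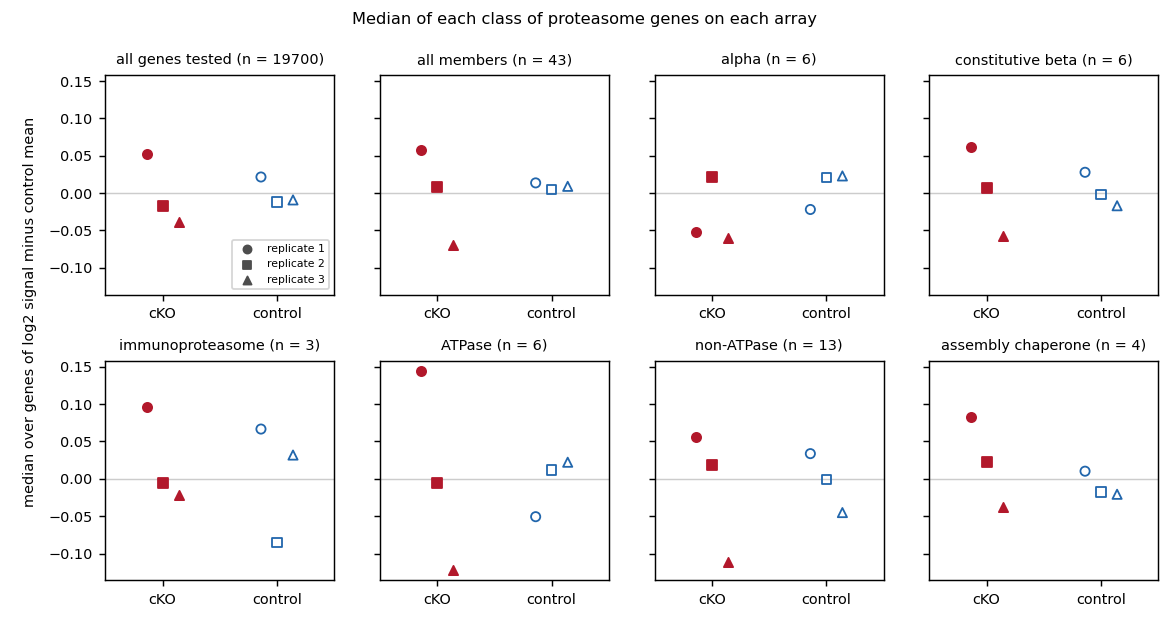
Median over the genes of a class of the log2 signal minus the control mean (y axis) on each cKO and control array (x axis), for all genes, all members and 6 classes, with 1 shape per replicate number. The cKO arrays of all members run from -0.070 to 0.057 and enclose the 3 control arrays.

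Extreme values were spread unevenly over the arrays. Replicate 1 of the cKO was the highest of the 6 arrays for 18 of 43 members (41.9%), against 33.5% of all genes, and cKO replicate 3 was the lowest for 15 (34.9%), against 27.9%. No other array was the highest for more than 8 members. Without cKO replicate 1, 5 members had an unadjusted p under 0.05, where 7.66% of all genes did: Psma7 (-0.21), Psmb6 (-0.21), Psmb11 (-0.33) and Psme1 (-0.21) with a lower mean in cKO and Psmd10 (0.25) with a higher one. Psma6 was not among them, and their adjusted p-values in limma were 0.629 to 0.65.

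**Figure D4:**
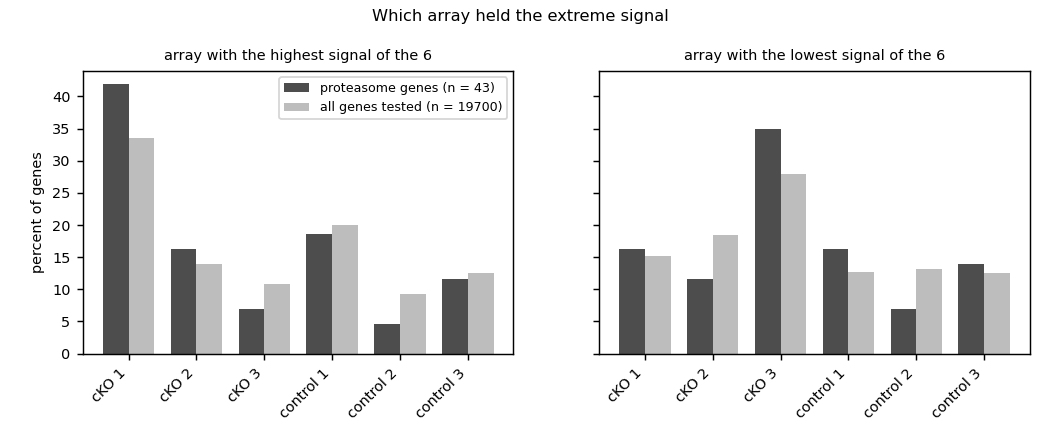
Percent of genes (y axis) for which each array (x axis) held the highest (left) or the lowest (right) signal of the 6, for the 43 proteasome genes and all 19700 genes. Replicate 1 of the cKO is the highest for 41.9% of the proteasome genes and cKO replicate 3 the lowest for 34.9%, against 33.5% and 27.9% of all genes.

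Lists of genes around the proteasome, chosen with earlier results of these data known, were read in the same fit. Of the 14 symbols listed as proteasome-bound and assembly genes, some of them older names of others, 11 were measured. In the cKO mean 6 were higher and 5 lower, with a median of 0.011 and none at an unadjusted p under 0.05. The 6 include Psmc3ip (0.041), which is not known as a proteasome-bound or assembly gene. Txnl1, a thioredoxin bound to the regulatory particle, was measured at 6.38, 6.30 and 6.30 in the cKO arrays, against 6.46, 6.39 and 6.46 in the control arrays. It was the 1 gene of the 11 whose groups did not overlap, beside 8.4% of all genes, and the difference was -0.11 (standard error 0.070). Pomp, the chaperone that starts beta ring assembly, is given for its role and differed by 0.027 (standard error 0.074). The 4 measured ubiquitin shuttles of 6 listed, which carry ubiquitinated proteins to the proteasome, all had a lower mean in cKO, with a median of -0.078 and none past an unadjusted p of 0.05. Ubqln4 was the only one of the 4 without overlap, beside 8.4% of all genes. It was measured at 7.55, 7.54 and 7.47 in the cKO arrays, against 7.79, 7.62 and 7.67 in the control arrays. Its difference was -0.17 (standard error 0.078, unadjusted p 0.0639 in limma).

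Among 10 measured regulators of proteasome genes of 11 listed, 6 had a higher and 4 a lower mean in cKO (median 0.097). In limma 1 of the 10 had an unadjusted p under 0.05, beside 3.96% of all genes, and the groups did not overlap for 2, beside 8.4%. Nfe2l1, given for its role, was measured at 7.63, 7.58 and 7.45 in the cKO arrays, against 7.63, 7.54 and 7.53 in the control arrays, a difference of -0.014 (standard error 0.081). Nfya, the NF-Y subunit that contacts the CCAAT box, was measured at 6.39, 6.41 and 6.47 in the cKO arrays, against 6.76, 6.58 and 6.62 in the control arrays. The cKO arrays lay below the control arrays, with a difference of -0.23 (standard error 0.079, unadjusted p 0.0225 and adjusted p 1 in limma). Of the other NF-Y subunits, Nfyb differed by -0.12 (standard error 0.13) and Nfyc, with the largest difference of the list and overlapping groups, by 0.69 (standard error 0.37). The 14 members with CCAAT in their promoter had a median difference of -0.026, against 0.0029 for the 21 without. Mafk, a small partner of NRF1 and NRF2, was measured at 5.67, 5.68 and 5.64 in the cKO arrays, against 5.61, 5.58 and 5.41 in the control arrays, without overlap and with a difference of 0.13 (standard error 0.081).

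Of 17 interferon and MHC class I genes, 13 were measured, 6 higher and 7 lower in the cKO mean, with a median of -0.027. The groups did not overlap for 3 of the 13, beside 8.4% of all genes. B2m, the light chain of MHC class I, was measured at 5.72, 5.81 and 5.92 in the cKO arrays, against 5.54, 5.61 and 5.70 in the control arrays. All cKO arrays lay above the control arrays, with a difference of 0.20 (standard error 0.087, unadjusted p 0.0568 in limma). Tap1, the peptide transporter, is given for its role beside the immunoproteasome and differed by 0.081 (standard error 0.11). The 2 genes of this list with an unadjusted p under 0.05 in limma, beside 3.96% of all genes, were Calr and Pdia3. Since the list was chosen with earlier results of these data known, its counts are no test of the list. They are chaperones of the endoplasmic reticulum that load MHC class I but also fold other glycoproteins. Calr was measured at 7.11, 6.80 and 6.71 in the cKO arrays, against 7.48, 7.41 and 7.41 in the control arrays, a difference of -0.56 (standard error 0.11, unadjusted p 0.00172). Pdia3 was measured at 8.37, 8.42 and 8.28 in the cKO arrays, against 8.60, 8.88 and 8.78 in the control arrays, a difference of -0.40 (standard error 0.096, unadjusted p 0.00454). Both had an adjusted p of 1 in limma.

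**Figure D5:**
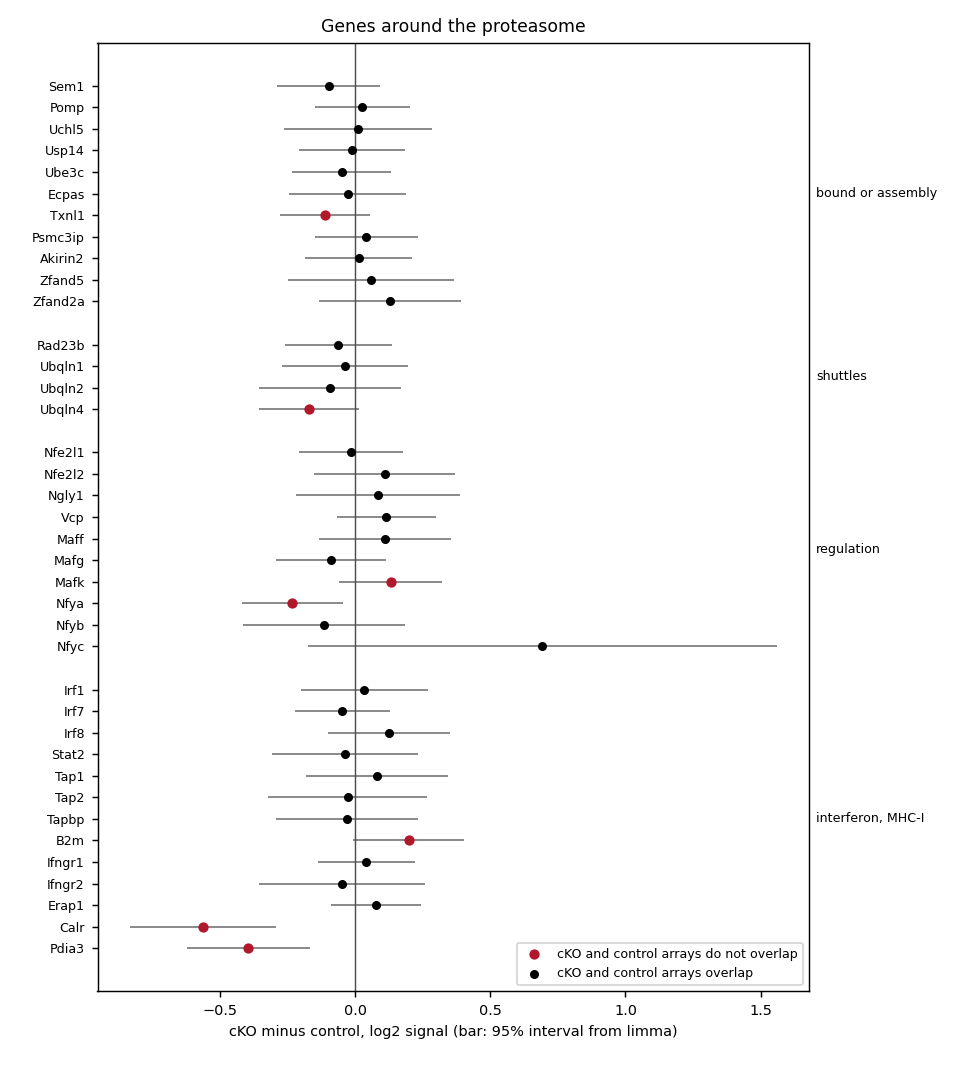
Difference of each measured gene around the proteasome, cKO minus control on the log2 scale (x axis), by list (y axis), with bars for the 95% interval from limma. Red points mark genes whose cKO and control arrays do not overlap, among which Calr (-0.56) and Pdia3 (-0.40) lie lowest, and the interval of Nfyc is the widest.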

How the data were processed

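Total RNA of cKO and control mice at P16 was hybridised to GeneChip mouse exon 1.0 ST arrays, 3 a group. The authors deposited a log2 signal per array for each of 101175 transcript clusters, after summary and normalization. The methods name GeneSpring for the data analysis. Neither the method of summary and normalization nor the genome build was given in the sources used here. A second deposited table, of clusters with the authors' own p-values and fold changes, was not used. Array medians ranged from 4.45 to 4.53. Precision is limited by having 3 arrays a group.

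Gene names came from the platform annotation, which lists a gene for 24276 clusters, 22773 of them with 1 symbol, 1503 with several, and 76899 unnamed here. Symbols of 22245 clusters were updated by identifier from RefSeq (GRCm38.p6), whose promoters were also searched. The brightest cluster was kept for the 2224 genes with several, giving 19700 genes with no filter on dim ones. Differences were tested two-sided in limma 3.58.1 (lmFit, then eBayes, under R 4.3.3), with Benjamini-Hochberg adjustment over all genes, after the code was tested on simulated data.

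The members, lists and tests were chosen with earlier results of these data known. Every member was named. All 6 values were given where an unadjusted p was under 0.05, where groups did not overlap, for the immunoproteasome subunits and for both extremes of a class, and also, chosen after their values were seen, for Psmb2, Psmc1, Psme4 and Nfe2l1. Of the related genes, those without overlap or with an unadjusted p under 0.05 were named, and Pomp, Tap1, Nfe2l1, Nfyb and Nfyc for their roles, chosen in the same way. Alternatives were another quantile normalization, median centring, removal of dim genes, a trended and robust spread, no moderation, averaged clusters, other clusters of a gene, the replicate number as a block, a looser threshold, leaving out each array and, chosen after seeing the data, both arrays numbered 1. Scanner files were not analysed here, and 1 motif search and 1 list of genes are not reported here.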

Additional observations from a re-analysis of the deposited data

How the results depend on the processing

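No gene passed an adjusted p of 0.05 in limma, 780 had an unadjusted p under 0.05, and the count of 0 held at a looser threshold of 0.1 and without each array in turn (0 to 0). It was 1 (Peg10, no proteasome gene) without the dimmest 25% of genes and 1 with clusters averaged. No proteasome gene passed in 525 alternatives (lowest adjusted p 0.629). Members at an unadjusted p under 0.05, 1 above, were 0 without moderation and 0 (without control replicate 1) to 5 (without cKO replicate 1) on leaving out an array, with 3 (Psma6, Psmb4 and Psmd2) without cKO replicate 3. The share of all genes there was 3.3%, 7.66% and 4.22%. With the replicate number as a block they were 3 (Psma6, Psmb2 and Psmd10), where 5.87% of all genes were called. The numbers are not known to pair the arrays (correlations of deviations 0.31, 0.037 and 0.17, with 4 of 6 arrays closest to their own number). Members without overlap, 4 above, were 6 to 14 with an array left out, where 15.1% to 26.9% of all genes did not overlap, and 21 without both arrays numbered 1, where fewer arrays are compared and 37.7% of all genes did not overlap.

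Medians on leaving out an array ranged over -0.038 to 0.024 for all members, -0.084 to -0.011 for alpha, -0.030 to 0.014 for constitutive beta, -0.11 to 0.0045 for immunoproteasome, -0.058 to 0.074 for ATPase and -0.038 to 0.028 for non-ATPase genes. The immunoproteasome median was 0.029 without dim genes. Of the 43 members, 23 kept their sign without each array, some with wide ranges: Psmb9 (0.043 to 0.15), Psmb10 (-0.12 to -0.0051), Psmd5 (0.0068 to 0.11), Psmd9 (0.028 to 0.12), Psmd11 (-0.14 to -0.045), Psme3 (0.067 to 0.19), Psmf1 (0.024 to 0.17) and Psmg4 (-0.13 to -0.021). The others, with Nfe2l1 and Tap1, took either sign: Nfe2l1 (-0.052 to 0.038), Psma2 (-0.17 to 0.0069), Psma3 (-0.074 to 0.075), Psma8 (-0.093 to 0.023), Psmb3 (-0.12 to 0.0056), Psmb7 (-0.051 to 0.029), Psmb8 (-0.14 to 0.0045), Psmc1 (-0.24 to 0.20), Psmc2 (-0.064 to 0.037), Psmc3 (-0.053 to 0.028), Psmc5 (-0.15 to 0.11), Psmd12 (-0.038 to 0.051), Psmd13 (-0.070 to 0.056), Psmd14 (-0.16 to 0.091), Psmd4 (-0.11 to 0.12), Psmd6 (-0.14 to 0.035), Psmd8 (-0.17 to 0.012), Psme1 (-0.21 to 0.024), Psme4 (-0.13 to 0.32), Psmg1 (-0.083 to 0.056), Psmg2 (-0.037 to 0.066) and Tap1 (-0.028 to 0.14). Without both arrays numbered 1 the sign turned for Psma3 0.059, Psma8 0.044, Psmb10 0.019, Psmb3 0.012, Psmb4 -0.0038, Psmc1 -0.38, Psmc4 -0.021, Psmd12 -0.032, Psmd14 0.0022, Psmd2 -0.013, Psmd4 -0.028, Psmg1 -0.088, Tap1 -0.0004 and Pomp -0.012. It turned with another quantile normalization for Psmb7 (0.020), Psmc3 (0.0011) and Nfe2l1 (0.0013), and with averaged clusters for Psmc1 (-0.0036), Psmd11 (0.10) and Psmf1 (-0.016). Other clusters of the gene turned it for Psmc1 (-0.13), Psmd11 (0.087 and 0.43) and Psmf1 (-0.45 and -0.091). For Psmb3 it turned in a cluster shared with Map3k13 (0.073). The causes were not tested. The arrays carry no detection calls here, and Psma8, Psmb8 and Psmb11 are among the dimmest 25% of genes.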
